A study of Cyprinus carpio with 6 samples.

Results

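Excitatory amino acid transporters (EAATs) were examined as the 12 of 53152 rows of a gene table of common carp (Cyprinus carpio) brain whose description names such a transporter. The 12 rows were 5 of type 1, 2 of type 2, 2 of type 3 and 3 of type 5, and no row was described as type 4. Messenger RNA was sequenced from brains of 3 samples labelled with no agent (control) and 3 labelled with lead. The title and design text name brain injury by lead as the question, while dose, duration, age, sex and strain of the fish are not given in the sources used here. Nothing in the labels ties the libraries to different fish, so p-values reflect only how these libraries vary, and that variation may be technical. Where 3 values are listed for a group, they stand in the order of its replicates 1, 2 and 3. The family was taken up because earlier results of these same data showed a type 1 and a type 2 copy lower with lead. The lead against control values below are therefore a description, and the counts of calls printed with them support nothing.

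EAATs are sodium-driven carriers of the SLC1 family that remove glutamate from the synaptic cleft and so end its action on receptors. In mammals, type 1 (SLC1A3, also GLAST) and type 2 (SLC1A2, also GLT-1) sit mainly in astrocytes, whereas type 3 (SLC1A1, also EAAC1) sits in neurons, where it also brings in cysteine. Type 4 belongs to Purkinje cells and type 5 to the retina, where it acts largely as a glutamate-gated chloride channel. Glutamate taken up by astrocytes is turned into glutamine by glutamine synthetase and returned to neurons. Carp carry an additional genome duplication, so most genes of the family are present in several copies. Cell type assignments in carp were taken over from mammals and were not measured here.

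Total counts over genes ran from 27841520 to 34848243 per library. Neuronal and astroglial marker genes were present in all 6 libraries at summed levels above 4299 CPM (counts scaled to library size by the TMM method), as the brain label would have it, although the protocol text also speaks of an adipose type. Of the 12 transporter rows, 4 had at least 1 FPKM (fragments per kilobase, a level per transcript length and library size) in each of the 6 libraries and entered the fit over 32149 genes. The other 8 held 0 to 180 counts over all 6 libraries together and did not pass the filter of 1 FPKM in at least 3 libraries. The 4 rows that entered were LOC109085655 (type 1), LOC109090559 (type 2), and LOC109102854 and LOC109087373 (both type 3).

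Transcript levels of the astroglial types were about 4 times lower in lead brains, and those of the neuronal type 3 overlapped between groups. Summed over its 5 copies, type 1 had 65.01, 36.0 and 63.2 CPM in the controls, and 7.81, 14.4 and 17.2 CPM with lead. Both copies of type 2 together had 38.7, 26.9 and 47.6 CPM in control and 8.86, 6.34 and 13.0 CPM in lead libraries. Every lead library lay below every control library for both types. Type 1 averaged 54.7 ± 16.3 CPM without and 13.2 ± 4.83 CPM with lead (SD, n = 3 each), 4.16-fold lower. Type 2 averaged 37.7 ± 10.4 and 9.40 ± 3.37 CPM (SD, n = 3 each), 4.01-fold lower. Type 3 averaged 46.8 ± 5.42 CPM without and 45.4 ± 14.5 CPM with lead (SD, n = 3 each). RNA of whole brain was measured, so fewer cells of a type and less RNA per cell cannot be told apart.

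With edgeR's quasi-likelihood test, none of the 4 transporter rows fitted passed a Benjamini-Hochberg adjusted p of 0.05, where 0.0124% of all genes passed lower and 0.0467% higher with lead. Without adjustment, 3 of the 4 had a p under 0.05 and were lower with lead, and 0 were higher, beside 8.77% of all genes lower and 7.53% higher. DESeq2 called 2 of the 4 lower, beside 2.23% of all genes, and 0 higher, beside 1.89%. The lead libraries lay wholly below the control libraries in 2 of the 4, as they did in 12.6% of all genes. As the family was chosen from this contrast, nothing is read from these counts.

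RNA of the 5 named type 1 rows came almost wholly from 1 of them. LOC109085655 is annotated on sequence NC_031705.1 from 13797801 to 13805199 on the minus strand, as the table gives it. It had 63.1, 33.4 and 59.8 CPM in the controls, and 6.50, 13.2 and 16.4 CPM with lead. The lowest control library was above the highest lead library by a factor of over 2. The fitted log2 fold change was -2.11 (SE 0.39), or 4.33-fold lower.

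LOC109090559, the 1 named type 2 row with reads, spans 65300 bases on NC_031706.1 from 10556539 to 10621838 on the minus strand. This copy had 38.7, 26.9 and 47.6 CPM in the control and 8.86, 6.34 and 13.0 CPM in the lead libraries. The groups were again apart, with a log2 fold change of -2.001 (SE 0.32), or 4.003-fold lower. A row for a syntaxin-binding protein 1-like gene (LOC109090560) overlaps it on the other strand. That row had 16 counts in all 6 libraries together, all of them in lead replicate 1, against 4652 for LOC109090559. The second type 2 row, LOC109093838, had 0 counts in every library, which allows at most 3 of the 190278548 counts in all, or 0.0158 CPM, for counting error only.

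The 2 neuronal copies of type 3 did not look alike. LOC109102854, named slc1a1 in the RefSeq gene table of another carp assembly (ASM1834038v1), had 42.1, 35.4 and 36.3 CPM in control and 56.8, 28.0 and 37.1 CPM with lead. Lead replicate 1 was the highest and lead replicate 2 the lowest of all 6 libraries, so the groups overlapped. Its log2 fold change was 0.10 (SE 0.25). That value was -0.22 without lead replicate 1, -0.0063 with library totals as the only scaling and -0.054 with limma on log2(FPKM + 1).

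LOC109087373, the less abundant type 3 copy, had 9.99, 5.86 and 10.8 CPM in control and 3.99, 3.92 and 6.38 CPM in lead libraries. Control replicate 2 lay below lead replicate 3, and the other libraries of the groups were apart. The log2 fold change of LOC109087373 was -0.90 (SE 0.33), or 1.86-fold lower. Its count relative to that of LOC109102854 was 0.237, 0.165 and 0.298 in control and 0.0703, 0.140 and 0.172 with lead. This ratio needs no scaling between libraries, and its groups overlapped between control replicate 2 and lead replicate 3.

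**Figure D1:**
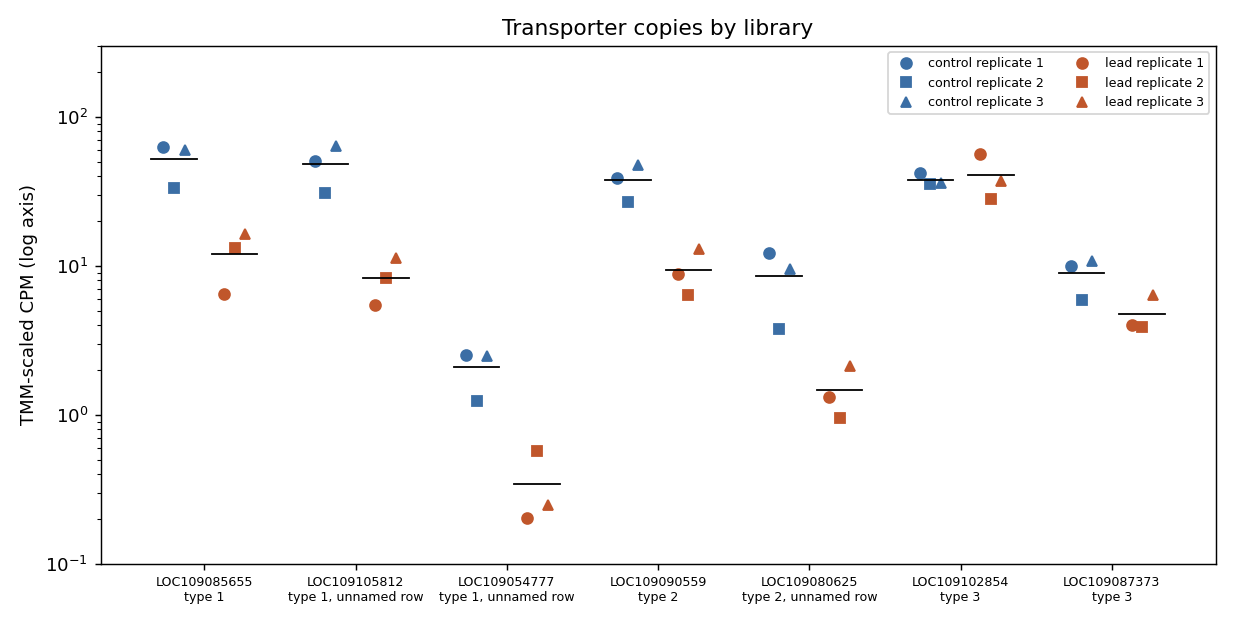
TMM-scaled CPM (log axis) of the 4 transporter rows fitted and of 3 unnamed rows with the same KEGG orthology entry, with 1 point per library and bars at the group means. In the type 1 and type 2 rows the lead libraries (6.50 to 16.4 CPM in LOC109085655) lie below the control libraries (33.4 to 63.1 CPM), while LOC109102854 overlaps between groups. LOC109054777 passed the level filter through its control libraries alone, so its difference is not read as a result.

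The remaining 4 type 1 rows were near the detection limit, with 70 to 106 counts each over the 6 libraries. LOC109091797 had 43, 28 and 20 counts in control and 9, 6 and 0 with lead. LOC109089192 had 16, 24 and 33 counts in control and 6, 10 and 3 in lead libraries. In both rows each lead library was below each control library, as in 12.6% of all genes fitted. With no low-value filter, their unadjusted p by edgeR was 0.106 for LOC109091797 and 0.153 for LOC109089192. LOC109080183, which RefSeq names slc1a3a, had 8, 18 and 28 counts in control and 5, 0 and 11 in lead libraries, with some overlap. In LOC109107626, counts of 0, 13 and 32 in control enclosed those of 19, 15 and 13 in lead libraries. Together these 4 rows had 263 counts in control and 97 in lead brains. At these depths single rows carry large counting error.

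Type 5, the retinal form, was barely detected in brain. LOC109091567 (slc1a7a in RefSeq) was its highest copy, with 30, 17 and 41 counts in control and 46, 24 and 22 with lead. LOC109048481 (slc1a7b) had 12, 15 and 24 counts in control and 4, 4 and 20 in lead libraries. LOC109081216 had 8 counts in control replicate 3, 15 in lead replicate 1 and 0 in the other libraries. None of the type 5 rows separated the groups. Summed over the 3 rows the level was 1.47 ± 0.674 CPM without and 1.52 ± 0.596 CPM with lead (SD, n = 3 each), and the libraries of the groups overlapped. Photoreceptor and pineal markers, which could accompany it, summed to between 66.6 and 106.3 CPM in control and between 73.1 and 105.1 CPM in lead libraries. Most of this came from transducin rows, at 48.2 to 83.6 CPM in control and 48.6 to 76.1 CPM in lead libraries. Opsin rows summed to 7.23 to 9.55 CPM in control and 7.06 to 11.8 CPM in lead libraries. Of the 35 marker rows, 2 were at 0 throughout.

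**Figure D2:**
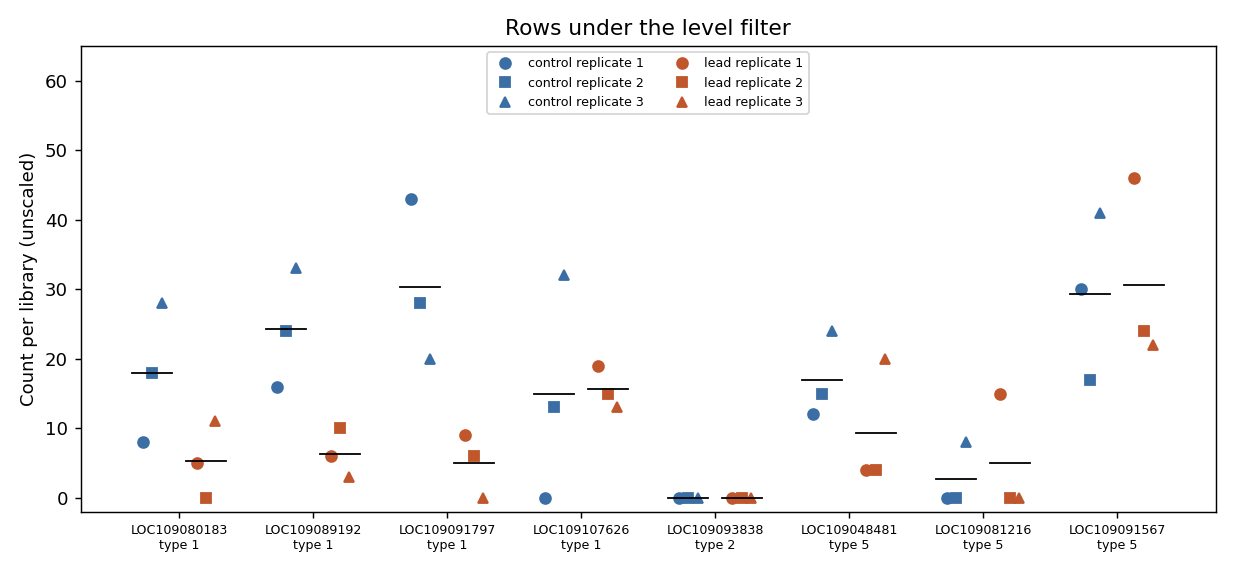
Unscaled counts per library of the 8 transporter rows under the level filter, with 1 point per library and bars at the group means. LOC109089192 and LOC109091797 (type 1) are the rows in which all control libraries lie above all lead libraries, and LOC109093838 is at 0 throughout.

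Levels per transcript length showed which of the 12 named rows held most of their RNA in untreated brain. Unnamed rows with the same KEGG orthology entries, described below, are not in this order. Of these, LOC109105812 (type 1 entry) averaged 46.8 FPKM and LOC109080625 (type 2 entry) 14.4 FPKM in control. LOC109085655 (type 1) had 26.8 to 52.3 FPKM and LOC109090559 (type 2) 21.9 to 41.0 FPKM in the control libraries, 2 ranges that overlap. LOC109102854 (type 3) came next at 11.98 to 14.7 FPKM, below every control value of the copies above it. LOC109087373 (type 3) followed at 3.54 to 6.91 FPKM, again without overlap. The 7 other rows with reads lay between 0 and 1.45 FPKM, and each overlapped its neighbour in the order. In lead brains the ranges lay closer together: LOC109102854 had 8.89 to 18.1 FPKM, against 4.88 to 13.0 for LOC109085655 and 4.85 to 10.5 for LOC109090559. All 3 ranges overlapped. LOC109085655 stayed above LOC109102854 in lead replicates 2 and 3 (9.94 against 8.89 and 13.0 against 12.4 FPKM) and was below it in lead replicate 1 (4.88 against 18.1 FPKM). LOC109090559 was below LOC109102854 in each lead library.

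The make-up of the 12 named rows by type differed between the groups, with the unnamed rows left out. Of the summed FPKM of the 12 rows, type 1 held 46.9% ± 3.14 without and 30.5% ± 11.6 with lead (SD, n = 3 each). Type 2 held 32.6% ± 2.55 and 21.1% ± 4.07 (SD, n = 3 each). Type 3 held 19.8% ± 3.01 without and 46.6% ± 11.3 with lead (SD, n = 3 each), and in no library more than in lead replicate 1, at 59.6%. Shares add up to a whole, so a lower share of types 1 and 2 raises that of type 3 with no difference in its level.

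**Figure D3:**
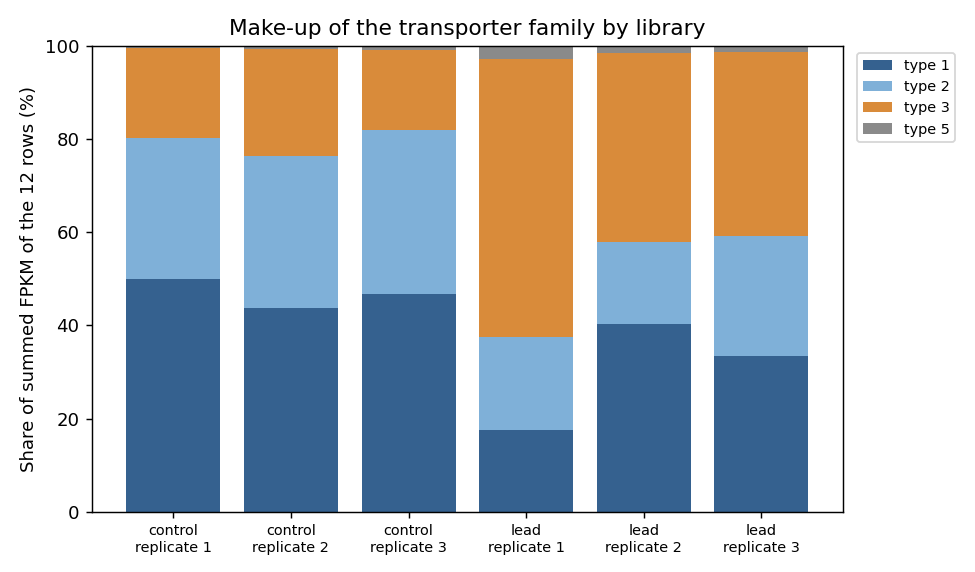
Share of each transporter type in the summed FPKM of the 12 rows (percent, stacked bars, 1 bar per library). Type 3 takes 17.1 to 23.0% of the control libraries and 39.6 to 59.6% of the lead libraries.

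Within each library, the summed FPKM of types 1 and 2 was set against that of type 3, a ratio that no scaling between libraries alters. It was 4.14, 3.31 and 4.81 in the controls, and 0.631, 1.43 and 1.49 with lead. Over the named rows, astroglial exceeded neuronal transporter RNA by over 3 times in each control library, and in lead replicate 1 the order was turned. With the unnamed rows described below added, types 1 and 2 had 19.97 FPKM in lead replicate 1. Type 3 had 20.4 FPKM there, so the 2 were nearly equal. Over the named rows, the mean of the log2 ratio differed between groups by -1.87. This difference lay between -2.09 and -1.47 with each library left out in turn. Between the main named astroglial copies no such difference was seen: LOC109085655 over LOC109090559 was 1.60, 1.22 and 1.23 in control and 0.715, 2.05 and 1.23 with lead. The lead libraries differed more among themselves in this ratio than the control libraries did.

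**Figure D4:**
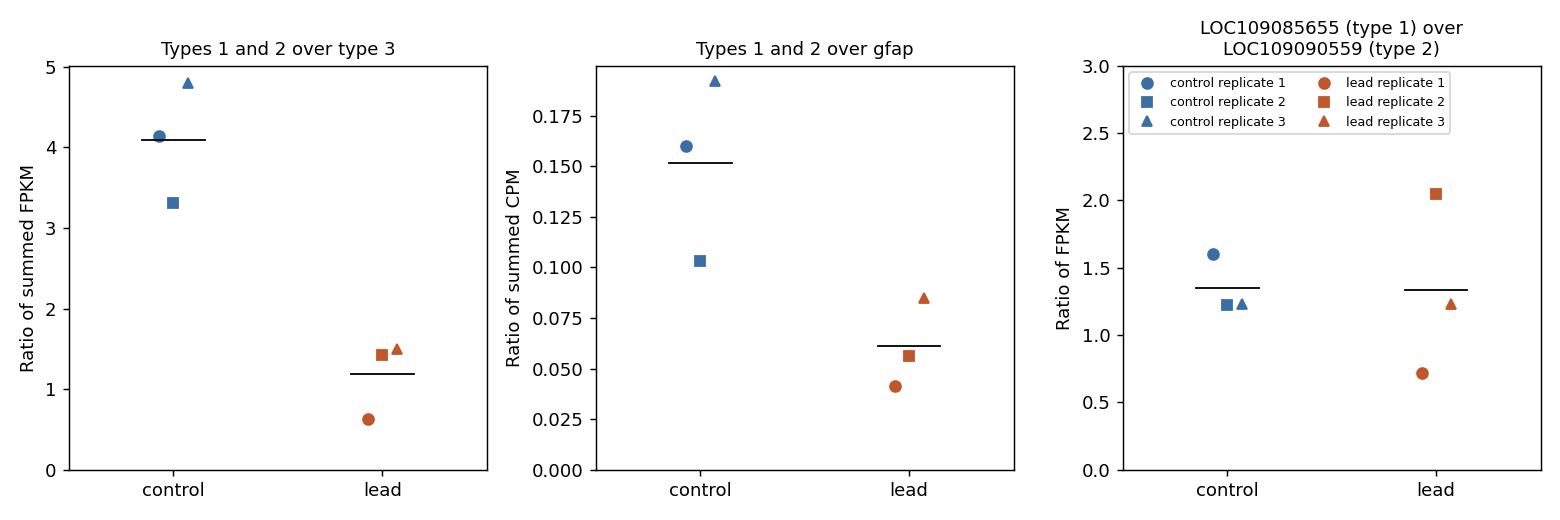
Ratios within each library, with 1 point per library and bars at the group means: types 1 and 2 over type 3 (FPKM), types 1 and 2 over gfap (CPM), and LOC109085655 over LOC109090559 (FPKM). The first 2 ratios are apart between groups (3.31 to 4.81 against 0.631 to 1.49 for the first), and the third overlaps. The gfap sum was itself lower with lead.

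Lower levels with lead were also seen in rows that the description leaves unnamed. The table gives each transporter type a KEGG orthology entry, and 4 further rows described only as hypothetical or uncharacterized proteins carry the entry of type 1 or of type 2. These rows are not members, and they were looked up after values had been seen. LOC109105812, with the type 1 entry, had 50.9, 30.7 and 64.3 CPM in control and 5.45, 8.25 and 11.3 CPM with lead. The log2 fold change was -2.54 (SE 0.36), and its control level of 46.8 ± 17.4 FPKM (SD, n = 3) was close to that of LOC109085655.

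LOC109080625, with the type 2 entry, had 12.3, 3.75 and 9.48 CPM in control and 1.32, 0.960 and 2.13 CPM in lead libraries, a log2 fold change of -2.53 (SE 0.51). LOC109054777, with the type 1 entry, had 2.54, 1.24 and 2.48 CPM in control and 0.203, 0.576 and 0.247 CPM in lead libraries, a log2 fold change of -2.61 (SE 0.63). For LOC109054777 the value was -1.13 with limma on log2(FPKM + 1), and the row did not pass the filter in 4 of 17 alternatives. LOC109054777 reached 1 FPKM only in the control libraries (2.22, 1.03 and 2.20 FPKM, against 0.153, 0.459 and 0.195 with lead). It thus passed the filter through the controls alone, and its difference between groups is not read as a result. In LOC109105812 and LOC109080625 the lead libraries lay wholly below the control libraries, as in 12.6% of all genes. The fourth unnamed row, LOC109046693 with the type 2 entry, had 39 counts over the 6 libraries and overlapped between groups. Another row with the type 2 entry is described as the dehydrogenase hsd17b14 and was left out of the sums.

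RefSeq's table for ASM1834038v1 matched 10 of the 12 members by gene number. In it LOC109085655 and LOC109105812 lie on chromosomes with the same number in the A and B subgenomes. The same holds for LOC109090559 with LOC109080625, and for LOC109087373 with LOC109102854. It also holds for LOC109107626 with LOC109054777, for which no ratio was taken. Of these, LOC109107626 had 92 counts over the 6 libraries and overlapped between groups. The count of LOC109105812 relative to LOC109085655 was 0.806, 0.918 and 1.08 in control and 0.839, 0.623 and 0.693 with lead. LOC109080625 relative to LOC109090559 was 0.317, 0.140 and 0.199 in control and 0.149, 0.152 and 0.164 in lead libraries. Both ratios overlapped between groups. How reads shared by such copies were assigned is not given, so sums over copies are given as well. With the unnamed rows added, type 1 was 105.5 ± 33.0 CPM without and 21.8 ± 7.77 CPM with lead (SD, n = 3 each), 4.83-fold lower. Type 2 was then 46.3 ± 13.7 and 11.2 ± 4.05 CPM (SD, n = 3 each), 4.14-fold lower.

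Other genes of glutamate handling were lower more often than higher in lead brains, with smaller differences than types 1 and 2. Of 67 rows listed, 49 were fitted. None was called by edgeR at an adjusted p of 0.05, and with no adjustment 12 had a p under 0.05 and a lower level, 0 a higher one (8.77% and 7.53% of all genes). DESeq2 called 6 lower and 0 higher (2.23% and 1.89% of all genes). The lead libraries lay wholly below the control libraries in 15 rows and wholly above in 1 (12.6% and 11.9% of all genes). The median log2 fold change was -0.39, against -0.01 over all genes and -0.50 for the list with library totals only. The 2 rows of smallest p were got1, the cytosolic aspartate aminotransferase that interconverts glutamate and aspartate, and LOC109064373, a vesicular glutamate transporter 2.1 that loads glutamate into synaptic vesicles. For got1 the level was 53.4 ± 2.05 CPM without and 30.8 ± 4.51 CPM with lead (SD, n = 3 each), or -0.79 on the log2 scale (SE 0.15, adjusted p = 0.149 by edgeR). For LOC109064373 it was 111.9 ± 20.4 and 63.9 ± 12.8 CPM (SD, n = 3 each), or -0.81 (SE 0.20, adjusted p = 0.182 by edgeR). Of 6 fitted aspartate aminotransferase copies, 2 were lower at an unadjusted p under 0.05 by edgeR (8.77% of all genes). A more abundant cytosolic copy, LOC109060878, was the 1 listed row wholly higher, at 176.8 CPM without and 199.8 CPM with lead. Cytosolic and mitochondrial rows together overlapped, with 352.4 to 386.3 CPM in control and 339.4 to 405.0 CPM in lead libraries.

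Glutamine synthetase, the astroglial enzyme that takes up the substrate EAATs deliver, had 3 fitted copies. In all 3, each lead library lay below each control library, as in 12.6% of all genes. The sum over all 4 listed rows ran from 303.1 to 402.3 CPM in control and from 135.3 to 262.2 CPM in lead libraries, and the median log2 fold change of the 3 fitted copies was -0.90. Among these, LOC109080911 had 116.7, 99.4 and 133.6 CPM in control and 0.271, 54.4 and 84.8 CPM with lead, so that lead replicate 1 stood apart. Glutaminase, which makes glutamate from glutamine in neurons, had 2 of 3 fitted copies lower at an unadjusted p under 0.05 (8.77% of all genes). Its median was -0.54. Of 6 fitted vesicular glutamate transporter copies, 4 were lower at an unadjusted p under 0.05 (8.77% of all genes). All 4 are described as vesicular type 2. Vesicular type 1 copies overlapped between groups, with log2 fold changes of 0.28 (LOC109048116) and -0.25 (LOC109055164). LOC109048116, the most abundant copy, averaged 901 CPM without and 1092 CPM with lead. Summed levels of the family overlapped (1058 to 1452 CPM in control, 1167 to 1490 in lead libraries). Among the 16 fitted copies of sodium-coupled neutral amino acid transporters, several of which carry glutamine, 2 were lower, near the share over all genes. Their median was -0.42. None of the 5 glutamate dehydrogenase, 3 cystine/glutamate transporter, 5 PRA1 family protein 3 and 2 neutral amino acid transporter copies had an unadjusted p under 0.05. The last of these are the SLC1 relatives of the EAATs that carry neutral amino acids.

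**Figure D5:**
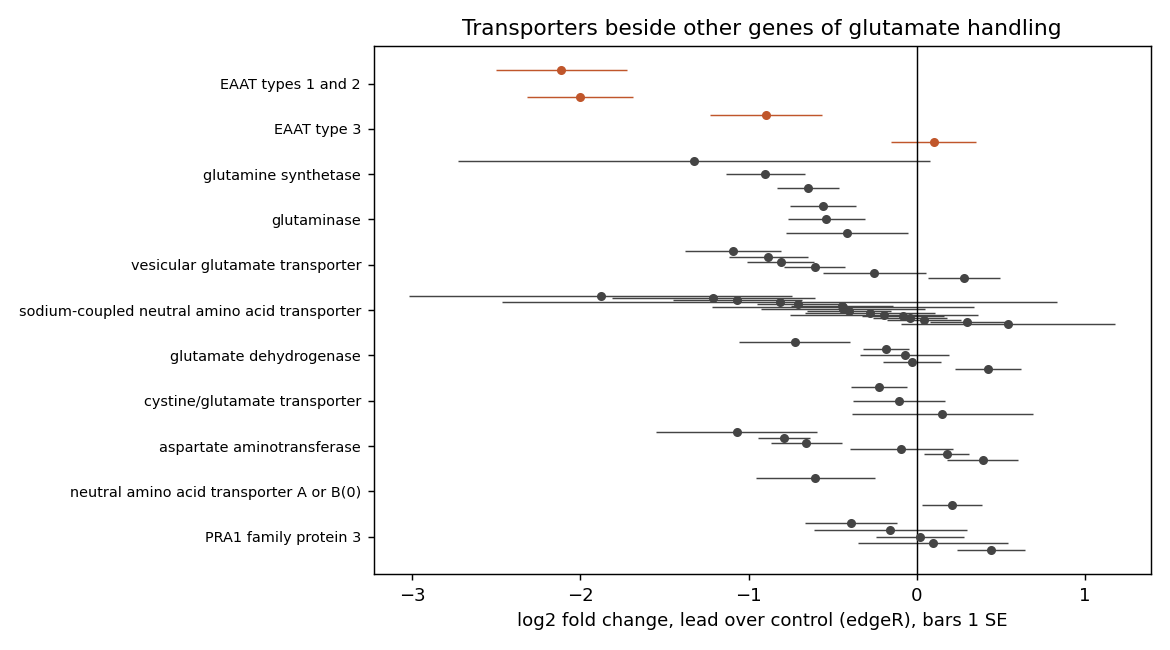
Log2 fold change of lead over control (edgeR, bars 1 SE) for each fitted copy, by gene family. EAAT types 1 and 2 lie at -2.11 and -2.001, type 3 at -0.90 and 0.10, and the 49 fitted rows of the list between -1.88 and 0.54.

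Markers of the cells that carry types 1 and 2 were lower in part. Of 33 rows for astroglia and radial glia, 25 were fitted and none was at 0 in all libraries. With no adjustment, 8 had a p under 0.05 and a lower level and 1 a higher one (8.77% and 7.53% of all genes). None was called by edgeR at an adjusted p of 0.05, and DESeq2 called 3 lower and 1 higher (2.23% and 1.89% of all genes). Their median log2 fold change was -0.28. Their summed level overlapped, at 4299 to 5172 CPM in control and 4327 to 4842 CPM in lead libraries. Most of this sum came from S100-B and brain fatty acid-binding protein rows. The latter had 1472 to 1665 CPM in control and 1255 to 1651 CPM in lead libraries. The 8 lower rows included both gfap copies, ndrg2 (log2 fold change -1.19) and aldh1l1 (-0.93). They also held 1 copy each of kcnj10, vimentin, brain fatty acid-binding protein and gap junction alpha-1. No fitted S100-B, sox9, aquaporin-4 or aromatase row had an unadjusted p under 0.05 by edgeR. The 2 copies of gfap, the intermediate filament of astrocytes, summed to 576.3 to 647.4 CPM in control and 356.0 to 401.8 CPM in lead libraries. The calcium-binding protein S100-B overlapped at 1664 to 2266 and 1993 to 2213 CPM, and the 4 rows of gap junction alpha-1 summed to 249.5 to 260.3 CPM in control and 327.8 to 333.4 CPM in lead libraries. The higher sum came from LOC109113609, while the other fitted copies, LOC109113611 (log2 fold change -0.71) and LOC109107920 (-0.82), lay wholly lower with lead. Such separation was seen in 12.6% of all genes. Of these 2, only LOC109113611 had an unadjusted p under 0.05 by edgeR. In LOC109107920 the groups nearly met, at 4.53 CPM in lead replicate 1 and 4.72 CPM in control replicate 3. Types 1 and 2 relative to gfap were 0.160, 0.103 and 0.192 in control and 0.0415, 0.0564 and 0.0849 with lead, and the groups did not overlap. The mean log2 of this ratio differed by -1.33, and the summed level of types 1 and 2 by -2.04 as a log2 ratio of group means. The gfap sum was itself lower with lead, which S100-B and the gap junction alpha-1 sum were not. No ratio to those was taken, so the value of -1.33 holds for gfap only. The part of a lower share of astroglia in the transporter values was not tested.

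The other marker lists gave no call by edgeR at an adjusted p of 0.05. DESeq2 called 3 oligodendrocyte and 1 microglial row lower, 1 endothelial row lower and 1 higher, and 1 haemoglobin row higher. It called 0 rows of the neuronal and the retinal and pineal lists. Of all genes, DESeq2 called 2.23% lower and 1.89% higher. Counts of rows lower and higher in the next sentences are at an unadjusted p under 0.05 by edgeR. At that threshold 8.77% of all genes were lower and 7.53% higher. Neuron markers (35 fitted of 46 rows, 4 rows at 0 throughout) had a median of -0.16, with 7 lower and 1 higher and sums of 4303 to 5256 CPM in control and 4405 to 4866 CPM in lead libraries. Oligodendrocyte markers (20 of 37, 3 at 0) had a median of -0.34, with 5 lower and 0 higher, and sums of 3567 to 6879 and 3745 to 4157 CPM. That median was -0.13 without control replicate 1. Microglia markers (16 of 21, 1 at 0) had a median of -0.22, with 3 lower and 0 higher, and sums of 242.0 to 510.4 and 217.0 to 371.9 CPM. The microglial median was 0.21 without control replicate 1 and -0.049 without lead replicate 2. Retinal and pineal markers (9 of 35) had a median of 0.33 with 0 lower and 1 higher, and -0.15 without lead replicate 2. Leaving out control replicates 1, 2 or 3 gave that median as 0.00088, 0.57 and 0.097. Endothelial markers (9 of 12, 0 at 0) had a median of -0.23 with 1 lower and 2 higher, and 0.15 without control replicate 1 and 0.07 without control replicate 3. Their sums were 124.3 to 190.9 CPM in control and 173.6 to 186.6 CPM in lead libraries. Haemoglobin rows (12 of 21, 1 at 0) had a median of 0.46 with 1 lower and 1 higher, and sums of 836.4 to 1225 and 1023 to 1453 CPM. The haemoglobin median was 0.18 without control replicate 2, 0.22 without lead replicate 1 and 0.13 with no low-value filter. What part these cell types have in the transporter values was not tested.

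Of the 2 rows of smallest p in each marker list, both were lower in the neuronal, oligodendrocyte and microglial lists. The other marker lists had 1 lower and 1 higher. For astroglia they were the gfap copy LOC109111834 (log2 fold change -0.89, SE 0.15) and the gap junction alpha-1 copy LOC109113609 (0.60, SE 0.12). For neurons they were a neurofilament light copy, LOC109069456 (-1.06, SE 0.32), and LOC109110288, an RNA-binding ELAV-like protein 3 (-0.81, SE 0.26). For oligodendrocytes they were a myelin proteolipid copy, LOC109084155 (-1.02, SE 0.30), and mpz, the myelin P0 protein (-0.98, SE 0.29). For microglia they were the complement C1q subunit A copy LOC109069311 (-1.79, SE 0.38) and the receptor for colony-stimulating factor 1, LOC109046330 (-1.51, SE 0.44). The retinal and pineal pair was the transducin gamma-T1 copy LOC109047088 (1.38, SE 0.46) and the melatonin synthesis enzyme gene LOC109059207 (-1.58, SE 1.12). The endothelial pair was made of the growth factor receptor copies LOC109110929 (-1.23, SE 0.29) and LOC109058092 (0.86, SE 0.23). In blood both were haemoglobin alpha copies, LOC109104654 (1.22, SE 0.32) and LOC109104655 (-0.39, SE 0.16).

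Genes whose level followed the sum of types 1 and 2 most closely were ranked by Pearson's correlation of log2 CPM over the 6 libraries, among 32145 fitted genes that are not members. As the groups stand apart in this sum, a gene that differs between groups in the same direction ranks high, and 1584 genes had a correlation over 0.9. The 5 highest with an informative description were a CaMKII beta subunit (LOC109064328, r = 0.998), reticulon-3, a shaper of the endoplasmic reticulum (LOC109069079, r = 0.997), vapb, a tether of that organelle (r = 0.997), the RNA-binding protein nono (LOC109083096, r = 0.997), and the Golgi traffic GTPase Rab-6A (LOC109109378, r = 0.996). The unnamed type 1 row LOC109105812 ranked second of all, with r = 0.997. LOC109080625 had r = 0.962. LOC109054777, which passed the filter through the controls alone, had r = 0.948, and nothing is read from it. Log2 fold changes of the 5 named genes ran from -1.34 to -0.53, so that each differed less than type 1 or type 2.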

How the data were processed

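Brain RNA was poly(A)-selected and sequenced as paired ends, per the labels' protocols. HISAT2 2.0, StringTie 1.3.0, Bowtie 0.12.2 and a mouse build are listed, with no roles, per the submitters' processing notes. Per the file headers, the values fitted are counts, and the headers name no scaling of them. FPKM values were deposited by the authors beside them, per the file headers. The assembly, strand setting and treatment of multiply mapping reads are not given in the sources used here.

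Members were matched on the description column. Counts were fitted with edgeR 4.0.16 (R 4.3.3; TMM, robust quasi-likelihood, lead against control) for the 32149 genes that reached 1 FPKM in 3 or more libraries, with Benjamini-Hochberg adjustment over all of them and a call at 0.05. The SE is the absolute log2 fold change divided by the root of F. The coefficient of variation that edgeR terms biological was 36.6%. It holds all variation between these libraries beyond counting error, which may be technical. The script was tested on simulated data drawn from the libraries' own means. Alternatives used DESeq2 1.42.0, limma 3.58.1, other scalings and filters, the replicate block and each library left out. Adding the unnamed rows to the sums and taking ratios within a library were chosen after seeing the data. Members, gene lists and tests were chosen with earlier results of these data known. After the descriptions were read, false matches were taken out of the lists. The rule asked for values by library of the highest copy of each type and the 6 members of smallest p; all 12 members were printed. List rows named were the 2 of smallest p. The 5 genes most alike in pattern were taken by Pearson's correlation on log2(CPM + 1). LOC109080911, LOC109113611, LOC109107920, LOC109060878, LOC109048116, LOC109055164 and the family sums were named after their values were seen. So were ndrg2, aldh1l1 and the other astroglial items.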

Additional observations from a re-analysis of the deposited data

How the results depend on the processing

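Types 1 and 2 kept their direction in every alternative run: the log2 ratio of summed levels lay between -2.30 and -1.79 for type 1 and between -2.31 and -1.79 for type 2 over 10 alternatives each. Type 3 lay between -0.31 and 0.15 and type 5 between -0.31 and 0.49. No transporter row was called lower in the alternatives with edgeR or limma, and DESeq2 called 2; the cause was not tested. Rows lower at an unadjusted p under 0.05 numbered 2 to 3. LOC109102854 turned to -0.0063 with library totals only, -0.054 with limma on log2(FPKM + 1) and -0.062 with log2(FPKM + 0.1), and ran from -0.22 (without lead replicate 1) to 0.30 with a library left out. Library totals only shifted the median of all genes by -0.10, as did limma on log2(FPKM + 0.1). In the glutamate list DESeq2 called 6 lower, and rows higher at an unadjusted p under 0.05 were 1 with no low-value filter, 2 with the replicate block, and 0 to 2 with a library left out. The list's median was -0.50 with library totals only, -0.31 with filterByExpr and -0.41 to -0.25 with a library left out. Neuron markers had -0.30 with no low-value filter. With a library left out, medians ran from -0.41 to -0.23 for astroglia, -0.29 to -0.064 for neurons, -0.15 to 0.57 for retina and pineal, and -0.32 to 0.15 for endothelium. Control and lead libraries of the same number correlated at 0.129, 0.0318 and 0.0802 in their deviations from group means. Those of different numbers correlated at -0.123 to 0.0449. Whether the numbers pair the libraries cannot be told from these values. With the replicate block, 0 transporter rows and 1 gene in all were called, against 19 without it. Counts of 180 or fewer limit what can be said of 8 of the 12 rows.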
